A study of Mus musculus with 12 samples.

Results

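Bone marrow-derived macrophages that had been treated with retinoic acid were compared by whether they had first been activated with interleukin 4 (IL4). The comparison used 6 of the 12 libraries of the study, 3 labelled as IL4 followed by retinoic acid (here IL4 RA) and 3 labelled as naive cells followed by retinoic acid (here naive RA). The libraries were taken by their labels, and genes were tested where the deposited log2 CPM (read counts scaled to the size of the library) was at least 0 in at least 3 of the 12 libraries, which kept 12116 of 13553 genes.

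The cells of every group came from the bone marrow of wild-type male C57BL/6 mice and were grown in 10 ng/mL M-CSF, which turns marrow precursors into macrophages. IL4 was given at 20 ng/mL and for 24 h, while naive cells stayed in control medium without it, labelled PBS. After a PBS wash, both groups compared here received 1 µM all-trans retinoic acid (RA) and were lysed after 6 h, so that IL4 came first and was no longer added while RA was present. The other 6 libraries were the same naive and IL4-activated cells given DMSO, the vehicle of RA, in place of RA, and they share no library with the RA comparison. Poly(A)-selected RNA was sequenced, each group has libraries numbered 2, 3 and 4, and the age of the mice is not given in the sources used here. Nothing in the labels says whether the libraries of a group came from separate animals or cultures, so the p-values reflect only how far libraries of a group differ, which may be technical.

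IL4 binds the IL4 receptor, whose Janus kinases phosphorylate STAT6, and STAT6 then enters the nucleus and switches on the genes of alternative activation, a macrophage state linked to helminth defence, tissue repair and allergy. RA is a small lipid made from vitamin A that binds nuclear RA receptors (RARs), which sit on DNA as partners of retinoid X receptors (RXRs). Macrophages activated by IL4 are known to express the enzyme that makes RA, so both signals can meet in the same cell.

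The stretches just upstream of genes with the largest increases show where the letters of a STAT-type palindrome occur. STAT6 is known to favour TTCNNNNGAA, and other STAT proteins TTCNNNGAA (each reads the same on both strands, and the windows were scored for each separately). The 250 bases upstream of the start, from RefSeq (GRCm38.p6), are printed 5′ to 3′ on the gene's strand for 4 of the 10 largest increases with an entry, those that hold either palindrome, which stands in capitals. They are Retnla (chr16:48842359-48842608, plus strand), Chil3 (chr3:106167565-106167814, minus strand), Ccl17 (chr8:94810203-94810452, plus strand) and Itgax (chr7:128129300-128129549, plus strand). The Ccl17 and Itgax windows end at the transcript start used in that table, which lies inside RefSeq's span of the gene.
Retnla: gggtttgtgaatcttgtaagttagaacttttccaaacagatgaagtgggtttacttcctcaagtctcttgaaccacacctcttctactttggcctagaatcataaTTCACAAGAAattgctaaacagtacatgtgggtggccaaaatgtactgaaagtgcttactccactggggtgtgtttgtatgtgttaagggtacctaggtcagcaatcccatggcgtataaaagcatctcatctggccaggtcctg
Chil3: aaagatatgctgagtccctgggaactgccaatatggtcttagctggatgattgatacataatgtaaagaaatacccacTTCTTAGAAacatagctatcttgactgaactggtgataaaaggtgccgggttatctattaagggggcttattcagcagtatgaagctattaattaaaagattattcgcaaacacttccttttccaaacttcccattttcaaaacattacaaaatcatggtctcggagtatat
Ccl17: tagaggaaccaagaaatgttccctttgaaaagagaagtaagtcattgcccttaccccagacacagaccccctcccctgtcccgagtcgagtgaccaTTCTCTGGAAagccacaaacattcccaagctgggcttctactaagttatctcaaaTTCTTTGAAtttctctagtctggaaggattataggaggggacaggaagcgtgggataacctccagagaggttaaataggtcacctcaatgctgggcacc
Itgax: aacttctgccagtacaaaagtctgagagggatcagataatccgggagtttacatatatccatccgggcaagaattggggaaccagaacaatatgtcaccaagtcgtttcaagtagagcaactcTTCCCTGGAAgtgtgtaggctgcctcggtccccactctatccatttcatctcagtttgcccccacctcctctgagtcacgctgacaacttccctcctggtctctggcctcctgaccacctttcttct
The palindrome with 4 free bases begins 145 bases upstream of the start in Retnla, 154 in Ccl17 and 127 in Itgax, and the palindrome with 3 begins 172 bases upstream in Chil3 and 99 in Ccl17. Over windows from 250 bases before to 50 after the start, TTCNNNNGAA occurred in 6.95% of all 32851 windows, in 7.06% of genes that rose with IL4 after RA, in 6.2% of genes that fell and in 11.1% of the 90 genes with a window that rose by 3 or more on the log2 scale. For TTCNNNGAA the same shares were 8.3%, 8.21%, 7.96% and 8.89%. Of the 15 largest increases 10 had a window, of which 3 held TTCNNNNGAA and 2 held TTCNNNGAA. Of the 15 largest decreases 11 had a window, of which 0 held TTCNNNNGAA and 1, that of Cd300e, held TTCNNNGAA. Genes without an entry, Arg1 among them, were not searched. The share of all windows with either palindrome is not reported here. A match describes the letters in these windows and shows no binding.

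IL4 changed the transcriptome of RA-treated macrophages broadly. By limma with Benjamini-Hochberg adjustment over all tested genes, 3516 genes were higher in IL4 RA than in naive RA libraries (29.0% of 12116) and 3231 were lower (26.7%), at an adjusted p under 0.05. These shares are the background for every count of list members given here, and the median change over all tested genes was -0.004 on the log2 scale. Of the 6747 genes called, 6540 had no overlap between the 3 IL4 RA and the 3 naive RA libraries. The share without overlap among all tested genes is not reported here, so this count has no background. The largest increases and decreases named in the text were picked among genes without overlap, so its absence there was set in advance. Of the genes called, 5398 (80.0%) were called in each of the 12 fits that left out 1 library. Large changes were mostly increases: 764 genes rose and 404 fell by at least 1 on the log2 scale, 276 rose and 59 fell by at least 2, and 127 rose and 7 fell by at least 3. Increases of less than 0.5 made up 1940 of the calls and decreases of less than 0.5 made up 2074, and called changes had a median size of 0.4, with a median standard error (SE) of 0.07 over tested genes.

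**Figure D1:**
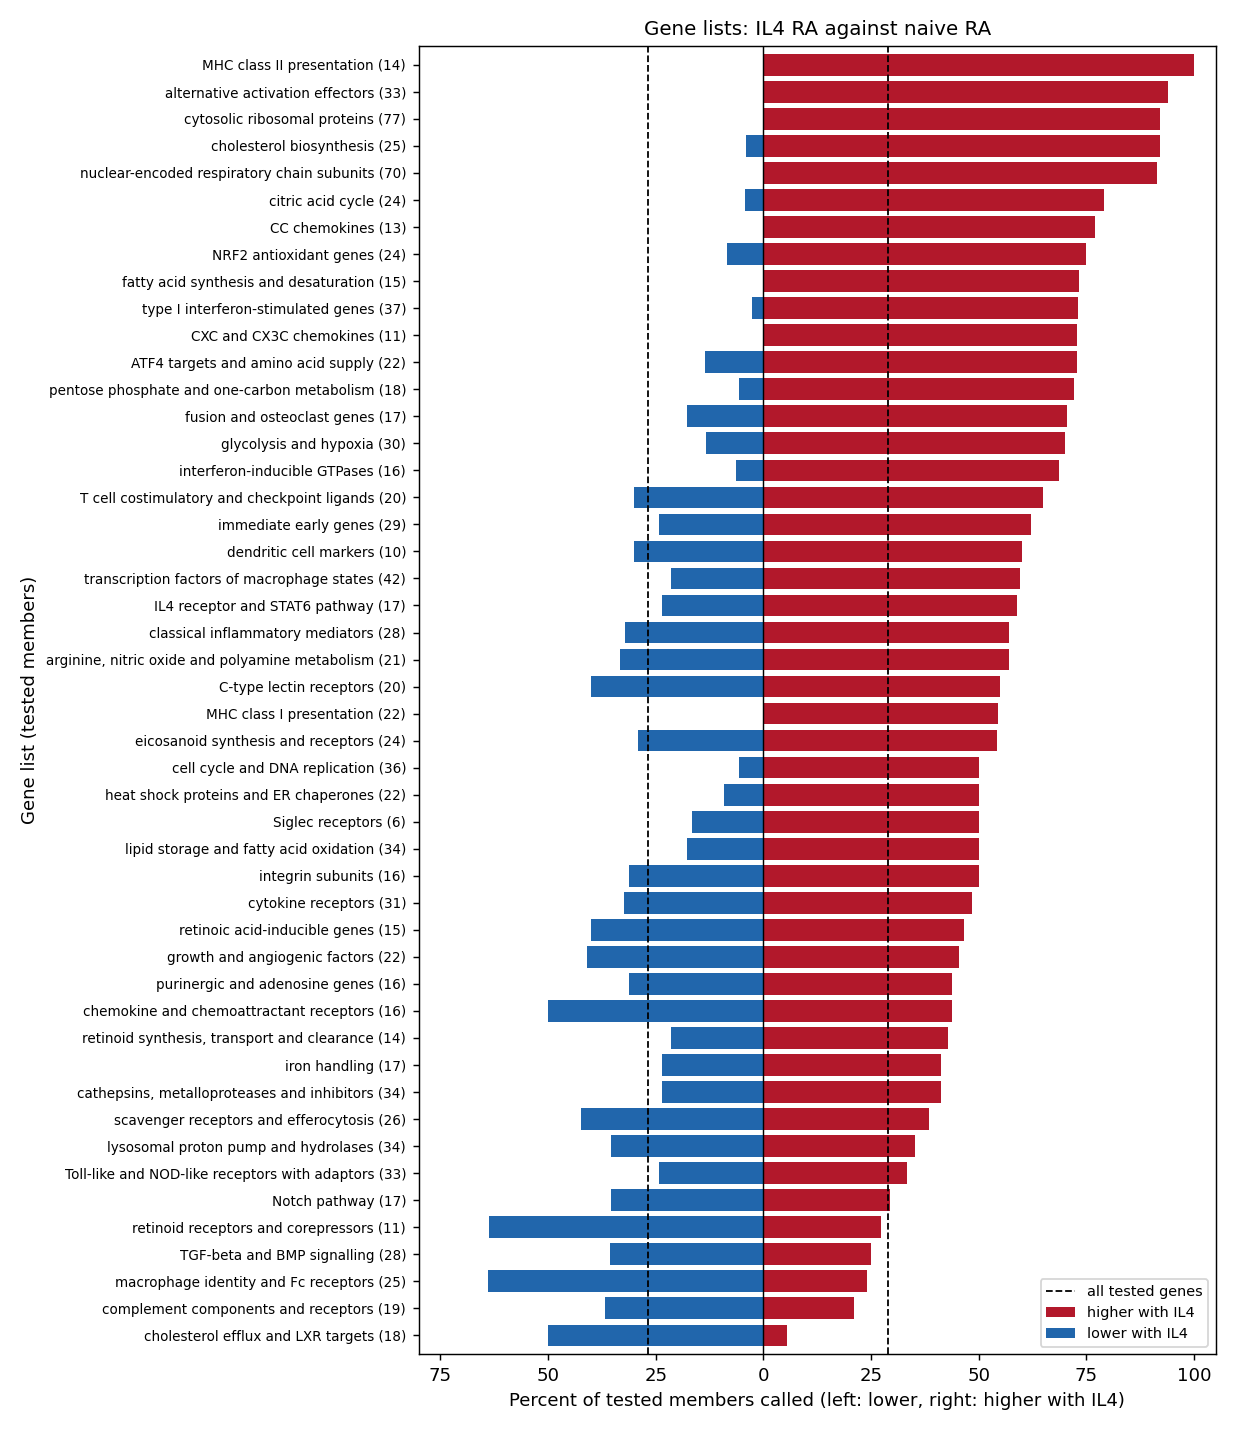
Percent of the tested members of each gene list called higher (red, right) or lower (blue, left) in IL4 RA than in naive RA libraries, with the number tested in brackets and dashed lines at the shares over all tested genes (29.0% higher, 26.7% lower). MHC class II presentation stands at the top with 14 of 14 members higher, and macrophage identity and Fc receptors are among the lists with most members lower (16 of 25).

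The secreted and surface products of alternative activation were the genes that moved most. Of 33 tested members of that list, 31 rose, none fell and the median change was 2.90. The other 2 members did not pass the test. Among the RA libraries, Retnla, Chil3, Arg1, Rnase2a and Mgl2 reached the filter's log2 CPM of 0 only with IL4. The filter thus favours members that are high with IL4, and the count and median of this list are partly set by it. Without naive RA library 2, 1 member was called lower. Retnla, which encodes the secreted cysteine-rich protein RELMα (chr16:48842609-48844461, plus strand), had log2 CPM of -2.64, -3.26 and -3.67 in naive RA libraries 2, 3 and 4 and of 7.64, 8.08 and 7.52 in the IL4 RA libraries. The lowest IL4 RA library lay far above the highest naive RA library, and the change was 10.94 ± 0.29 (SE, n = 3 per group, adjusted p = 4.9e-12 by limma). Chil3, which encodes a chitinase-like protein secreted by mouse macrophages (chr3:106147554-106167564, minus strand), went from -1.02, -1.47 and -2.66 to 7.53, 7.86 and 7.46, a change of 9.33 ± 0.30 (adjusted p = 3.1e-11). The groups did not overlap for either gene. Chil3, Rnase2a and Gbp2b belong to families with close copies, among which reads can be split, so their exact levels are uncertain.

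Arg1 encodes arginase 1, which splits arginine into urea and ornithine (chr10:24915207-24927470). It stood at -0.66, -0.30 and -0.25 in the naive RA libraries and at 7.82, 8.13 and 7.83 in the IL4 RA libraries, so that the spread within each group was small beside the gap. The change was 8.33 ± 0.17 (adjusted p = 4.3e-13). Rnase2a, which encodes a secreted ribonuclease of the eosinophil-associated family (chr14:51255261-51256112, minus strand), was listed at -3.67 in each of the 3 naive RA libraries, the bottom value that all libraries share, and at 4.32, 4.96 and 4.39 after IL4, and no fold is given against it. Mgl2, a C-type lectin that binds galactose-type sugars, rose by 7.72 ± 0.20 from -1.03, -0.44 and -0.86 to 6.89, 7.17 and 6.76. Mrc1, the mannose receptor often used as a marker of this state, rose by less, from 5.85, 6.01 and 5.78 to 7.55, 7.31 and 7.45 (1.56 ± 0.07, adjusted p = 7.6e-10), again without overlap. Other members that rose were the vascular growth factor receptor Flt1 (5.27 ± 0.15), the arginine transporter Slc7a2 (4.26 ± 0.09) and the elastase Mmp12 (4.36 ± 0.11).

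**Figure D2:**
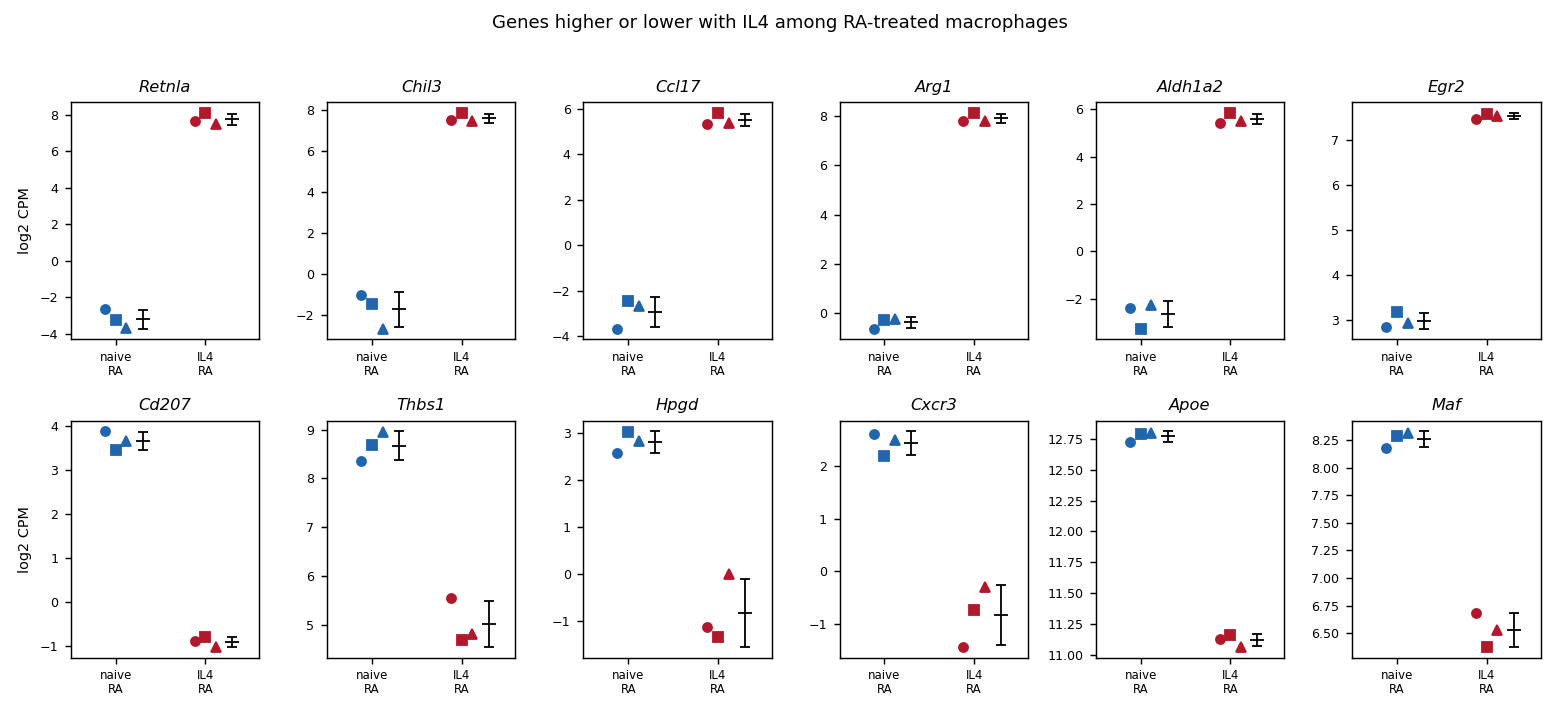
Deposited log2 CPM of 12 genes in the 3 naive RA and 3 IL4 RA libraries (circle, square and triangle for libraries 2, 3 and 4), with a black bar at the mean ± SD (n = 3) and a separate y axis in each panel. Retnla, Chil3, Ccl17, Arg1, Aldh1a2 and Egr2 are higher after IL4 and Cd207, Thbs1, Hpgd, Cxcr3, Apoe and Maf lower, with no overlap in any panel.

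The IL4 receptor pathway itself moved in both directions. Of 17 tested members, 10 rose, 4 fell and the median change was 0.14; without IL4 RA library 4, 2 members fell. Il4ra, the receptor chain that binds IL4, fell slightly, from 6.72, 6.71 and 6.67 to 6.47, 6.52 and 6.37 (adjusted p = 0.00345), without overlap. Stat6 was at 7.99, 8.04 and 8.07 in naive RA and at 8.03, 7.94 and 7.95 in IL4 RA libraries, which overlapped, and its change of -0.06 ± 0.04 did not pass the test (adjusted p = 0.172). That call depended on scale and on 1 library: Stat6 passed the test under quantile normalization (-0.168, adjusted p = 0.00117), with libraries centred on their medians (-0.092, adjusted p = 0.0419) and without IL4 RA library 2 (-0.091, adjusted p = 0.0435). Socs2 and Socs1, which encode suppressors of cytokine signalling, rose by 2.90 ± 0.11 and 1.16 ± 0.18, and the kinase gene Jak2 rose by 1.18 ± 0.07. Irs2, an adaptor that docks to the IL4 receptor, fell by 0.78 (SE 0.10).

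Among 42 tested transcription factors of macrophage states, 25 rose, 9 fell and the median change was 0.39. Egr2, a zinc finger factor that STAT6 is known to induce (chr10:67534469-67542188, plus strand), rose from 2.84, 3.18 and 2.92 to 7.46, 7.59 and 7.54, a change of 4.55 ± 0.07 (adjusted p = 7.4e-14) with no overlap. Irf4, a factor of alternative activation and of dendritic cells, rose from 0.11, 1.08 and 0.34 to 3.02, 3.13 and 3.07 (2.56 ± 0.19, adjusted p = 9.9e-08). Other increases were those of the ligand-activated factor Ahr (3.36 ± 0.09), Bhlhe40 (3.08), Batf3 (2.78) and Myc (1.95 ± 0.12). Falls included Nr4a1, an orphan nuclear receptor known from patrolling monocytes (fell by 2.16), Maf (fell by 1.73) and Id3 (fell by 0.92). Maf went from 8.18, 8.29 and 8.31 to 6.68, 6.38 and 6.53, and the groups did not overlap. Pparg, the fatty acid receptor that cooperates with STAT6 in IL4-activated macrophages, stood at 4.30, 4.57 and 4.47 against 4.34, 4.57 and 4.62; the groups overlapped, the change was 0.06 ± 0.09 (adjusted p = 0.571), and without naive RA library 2 its sign turned (-0.012, adjusted p = 0.919).

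**Figure D3:**
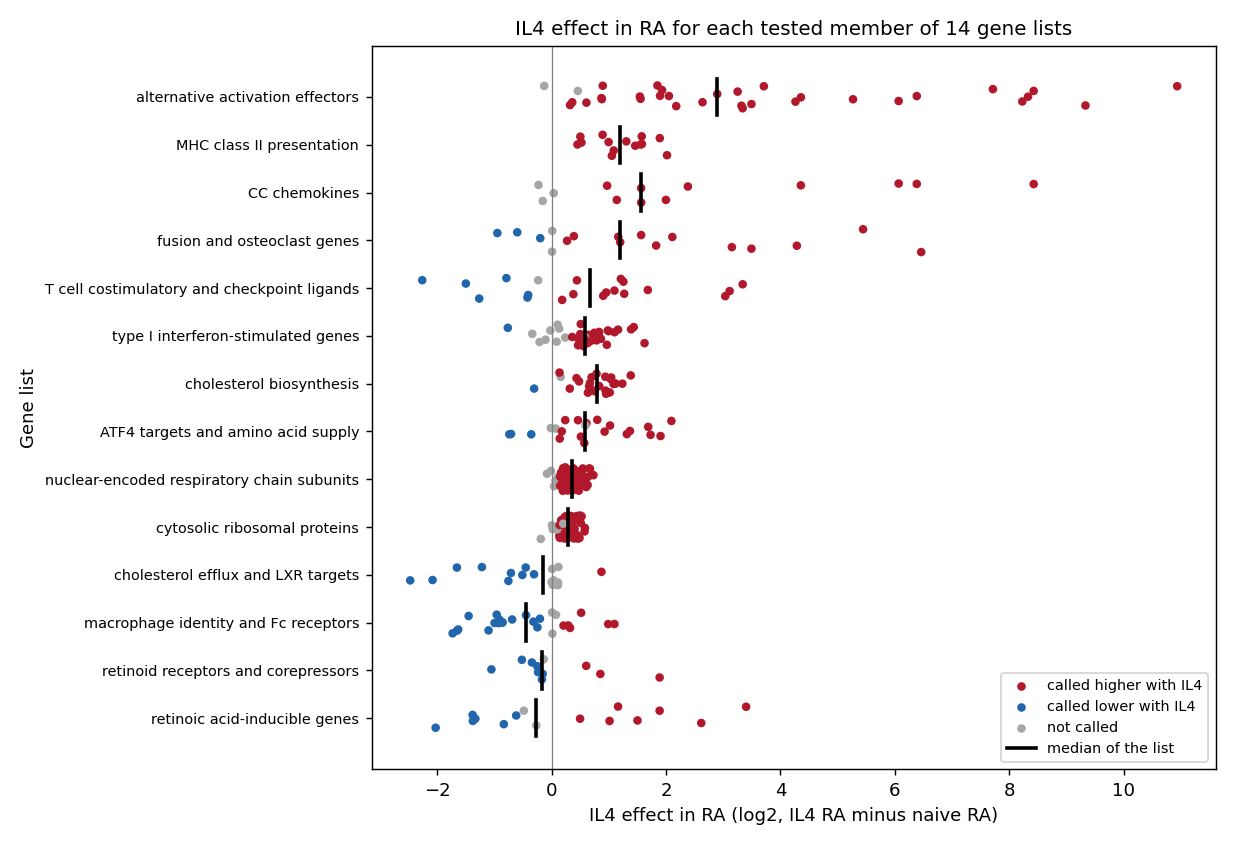
IL4 effect in RA (log2, IL4 RA minus naive RA) of every tested member of 14 gene lists, coloured red where called higher, blue where called lower and grey where not called, with a black line at the median of each list; Rnase2a is drawn at its fitted value, which rests on the bottom value. Members of the alternative activation list reach furthest to the right, with a median of 2.90, while macrophage identity and Fc receptors lie mostly below 0, with a median of -0.45.

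Genes that make and sense RA moved in both directions. Of 14 tested genes of retinoid synthesis, transport and clearance, 6 rose and 3 fell, and of 11 receptors and corepressors 3 rose and 7 fell (median change -0.17). Aldh1a2, which encodes the retinaldehyde dehydrogenase that makes RA (chr9:71215789-71296243, plus strand), was at -2.41, -3.26 and -2.25 in the naive RA libraries and at 5.44, 5.84 and 5.51 after IL4. The change was 8.24 ± 0.24 (adjusted p = 1.3e-11), and the libraries of the groups were far apart. Dhrs9, a dehydrogenase that acts on retinol, rose by 2.31 ± 0.07 and the plasma retinol carrier gene Rbp4 by 3.70 ± 0.29. Dhrs3, which reduces retinaldehyde back to retinol and is induced by RA in many cells, was at 7.92, 7.99 and 7.96 and at 8.41, 8.50 and 8.46 with IL4 (0.50 ± 0.04, adjusted p = 1.7e-07), with no overlap. Cyp26b1, an enzyme that breaks RA down, stood at 0.93, 0.58 and 0.36 against 0.87, -0.15 and 0.35, and its groups overlapped (-0.27 ± 0.32, adjusted p = 0.496).

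Of the RA receptors, Rarb, which carries a well known RA response element of its own, rose from 1.60, 1.50 and 1.15 to 3.15, 3.46 and 3.31 (1.89 ± 0.23, adjusted p = 1e-05), and Rarg rose by 0.85 ± 0.06. Rara fell by 0.25 (SE 0.07, adjusted p = 0.00543). Rxra, the partner receptor, fell from 5.99, 5.99 and 5.89 to 4.98, 4.88 and 4.86, a change of -1.05 ± 0.05 (adjusted p = 1.7e-09). None of the 4 overlapped between groups. The receptor coactivator genes Ncoa1 and Ncoa3 fell by 0.34 and 0.52, and Nrip1, a corepressor that RA induces, rose by 0.60 ± 0.08. Among 15 genes taken as inducible by RA, a list drawn up with earlier results of these data known, 7 were higher and 6 lower in IL4 cells, with a median change of -0.27. Hic1, a transcriptional repressor (chr11:75161377-75170255, minus strand), rose from 0.51, 1.05 and 0.81 to 4.18, 4.32 and 4.07 (3.40 ± 0.21, adjusted p = 1.7e-08), and Cebpe, a granulocyte factor, rose by 2.62 ± 0.26. Tgm2, the tissue transglutaminase, was at 10.09, 10.15 and 10.24 without IL4 and at 9.68, 9.49 and 9.45 with it, and so fell by 0.62 (SE 0.06, adjusted p = 2.6e-06). Bmp2 fell from 5.75, 5.96 and 5.91 to 4.00, 3.72 and 3.82, and the adaptor gene Pram1 and the NAD-consuming ectoenzyme gene Cd38 each fell by 1.38; no library of either group overlapped the other for these genes.

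Chemokines that draw T cells and eosinophils were far higher in the IL4 cells. Of 13 CC chemokines tested, 10 rose and none fell (median change 1.57; 2 fell without IL4 vehicle library 2). Ccl17, a ligand of the T helper cell receptor CCR4 (chr8:94809380-94812038, plus strand), was at -3.67, -2.44 and -2.66 without IL4 and at 5.33, 5.80 and 5.39 with it, a change of 8.43 ± 0.28 (adjusted p = 4.3e-11). Ccl22, the other ligand of CCR4, went from 3.31, 4.31 and 4.04 to 10.09, 10.51 and 10.22, and the eosinophil attractant Ccl24 from -3.67, -2.20 and -2.41 to 2.97, 3.59 and 3.37. For all 3 genes the groups were clearly separate. Of 11 CXC and CX3C chemokines 8 rose and none fell (median change 1.01), among them the neutrophil attractants Cxcl3 (3.21) and Cxcl2 (1.70). Cxcl9, an interferon gamma-induced attractant, also rose, from -0.18, 0.16 and 0.26 to 2.54, 2.57 and 2.15 (2.34 ± 0.30, adjusted p = 2e-05), without overlap.

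Receptors for such signals split instead. Among 16 chemokine and chemoattractant receptors 7 rose and 8 fell (median change -0.13). Ccr7, which guides cells to lymph nodes, rose by 3.96 ± 0.25, Ccr1 by 3.72 ± 0.16 and the monocyte receptor Ccr2 by 2.57. Cxcr3, the receptor of the CXCL9 protein, fell from 2.62, 2.19 and 2.50 to -1.44, -0.74 and -0.31 (-3.26 ± 0.29, adjusted p = 6.2e-07), and the formyl peptide receptor Fpr1 and the complement C5a receptor C5ar1 fell by 1.52 and 1.13. The cytokine receptor list was likewise mixed, with 15 of 31 members higher and 10 lower (median change 0.25): Il27ra (3.25), Il18rap (2.46) and the IL33 receptor Il1rl1 (2.22) rose, while Il6ra fell by 1.31 and Csf3r by 0.69.

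Antigen presentation by MHC class II rose throughout its list. All 14 tested members were higher (12 under quantile normalization), with a median change of 1.20. Ciita, the master coactivator of these genes, went from 4.99, 5.30 and 5.24 to 7.03, 7.12 and 7.07 (1.89 ± 0.10, adjusted p = 3e-09), with no overlap. H2-DMb1, which helps to load peptide, rose by 2.02 ± 0.07, the invariant chain gene Cd74 by 1.09 ± 0.13 and the class II chain gene H2-Aa by 1.00 ± 0.16. MHC class I presentation moved less, with 12 of 22 members higher, none lower and a median change of 0.32; 1 member was called lower without naive RA library 2 and 3 under quantile normalization. Nlrc5, the coactivator of class I genes, rose by 1.00. Of 20 T cell costimulatory and checkpoint ligands 13 rose and 6 fell (median change 0.67). Pdcd1lg2, which encodes the checkpoint ligand PD-L2, rose from -0.87, -0.74 and -0.55 to 2.60, 2.73 and 2.53 (3.34 ± 0.14), and Cd40 rose by 3.04 ± 0.12, whereas Cd80 fell by 0.79 and Tnfsf14 by 1.50. Of 10 dendritic cell markers 6 rose, among them the transcription factor Zbtb46 (3.34) and the lectin Clec9a (2.50), and 3 fell (Kit by 1.37, Cd24a by 0.64 and Tcf4 by 0.32).

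Type I interferon-stimulated genes and interferon-inducible GTPases were mostly higher after IL4, by moderate amounts. Of 37 interferon-stimulated genes 27 rose and 1 fell (median change 0.59), and of 16 GTPases 11 rose and 1 fell (median change 0.85). Isg15, a ubiquitin-like antiviral protein, was at 5.97, 6.60 and 6.92 in the naive RA libraries and at 7.66, 7.59 and 7.54 in the IL4 RA libraries, so that naive RA library 2 was the lowest and the spread within that group was wide (1.10 ± 0.21, adjusted p = 0.00052). Mx1, Oasl1, Usp18 and Ifit1 also had their lowest naive RA value in library 2, and without that library, as without naive vehicle library 2, 2 members of the list fell; over all leave-outs 21 to 29 rose. Mx1 rose by 1.44 ± 0.26 and Oasl1 by 1.62 ± 0.24, while the membrane protein gene Ifitm3 fell by 0.77 (SE 0.17). Among the GTPases Gbp2 (2.96 ± 0.11) and Gbp3 (2.07 ± 0.17) rose, as did Gbp2b, a relative that is not on the list (5.48 ± 0.20), and the member that fell was Gbp9 (-0.39, adjusted p = 0.0352). That call was lost without IL4 RA library 3 (adjusted p = 0.0767) or 4 (adjusted p = 0.104) and without naive RA library 3 (adjusted p = 0.116) or 4 (adjusted p = 0.16), and also without the intensity trend (adjusted p = 0.0663) or with robust moderation (adjusted p = 0.0875).

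Genes of classical inflammation moved in both directions. Of 28 tested, 16 rose and 9 fell (median change 1.01). Nos2, the inducible nitric oxide synthase that competes with arginase for arginine, rose from 0.73, 1.57 and 0.66 to 4.80, 4.87 and 4.65, without overlap (3.78 ± 0.23, adjusted p = 9.1e-09). Il6 (3.92 ± 0.28), the coagulation starter F3 (4.30), the vasoconstrictor gene Edn1 (4.42) and Tnf (1.47 ± 0.12) rose. Il10, an inhibitory cytokine, fell by 2.27 (SE 0.29), Il1b fell by 0.87 (SE 0.20) and the scavenger receptor gene Marco fell by 1.47. In arginine, nitric oxide and polyamine metabolism 12 of 21 genes rose and 7 fell (median change 0.19); beside Arg1, Nos2 and Slc7a2, the creatine synthesis gene Gatm rose by 1.54, and the second arginase gene Arg2 fell by 2.35 (SE 0.14), Ddah2 fell by 1.35 and the polyamine enzyme gene Odc1 fell by 0.70. Of 24 eicosanoid genes 13 rose and 7 fell (median change 0.36): the cyclooxygenase gene Ptgs2 rose by 3.06 ± 0.15 and the leukotriene C4 synthase gene Ltc4s by 1.41 ± 0.14, while the prostaglandin D2 synthase gene Hpgds fell by 2.10 (SE 0.06). Of 29 immediate early genes 18 rose, among them Nr4a3 (4.18), and 7 fell, among them Fos by 1.31.

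Surface receptors of several families changed. Macrophage identity and Fc receptor genes were lower as a rule, with 16 of 25 down, 6 up and a median change of -0.45. The lipopolysaccharide coreceptor gene Cd14 fell by 1.63 (SE 0.09), the high-affinity IgG receptor gene Fcgr1 fell by 1.45 (SE 0.19), Adgre1, which encodes F4/80, fell by 0.93 (SE 0.09) and the M-CSF receptor gene Csf1r fell by 0.32 (SE 0.05). Cd200r1, an inhibitory receptor, rose by 1.10 ± 0.03. Of 16 integrin subunits 8 rose and 5 fell (median change 0.10, and -0.11 under quantile normalization). Itgax, the integrin chain known as CD11c (chr7:128129526-128150657, plus strand), went from 5.14, 5.28 and 4.95 to 10.83, 10.89 and 10.70, with little spread within groups (5.69 ± 0.08, adjusted p = 3.6e-14), and Itgb8 rose by 4.36 ± 0.18. Itga9 fell by 3.24 (SE 0.17). Siglecf, a sialic acid-binding receptor known from eosinophils and alveolar macrophages, rose from 0.65, 1.40 and 0.86 to 6.09, 6.35 and 6.41 (5.32 ± 0.16). Of the 6 Siglec receptors tested 3 rose and 1 fell (Siglece, -1.62), and 2 fell without naive RA library 2 or without naive vehicle library 2 or 3.

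C-type lectin receptors included 11 of 20 members higher and 8 lower (median change 0.38; with a filter at 4 CPM 7 were higher). Klrk1 rose by 3.27 and the beta-glucan receptor gene Clec7a by 1.90, while Clec4a1 fell by 1.52. Of 26 scavenger and efferocytosis genes 10 rose and 11 fell (median change -0.04): the oxidised lipoprotein receptors Olr1 (3.84) and Cd36 (2.07) rose, and Mertk, which takes up dying cells, fell by 1.10 (SE 0.05). Complement genes included 4 of 19 higher, among them C3 (1.53), and 7 lower, among them the receptor C3ar1 (fell by 1.07). Their median change was -0.14, and under quantile normalization it was -0.47 with 9 lower. Of 33 Toll-like and NOD-like receptor genes 11 rose and 8 fell (median change 0.01, and -0.06 under quantile normalization). These counts were close to the shares over all tested genes (29.0% higher and 26.7% lower), so this list did not stand out. Among its members Tlr9 fell by 0.80 and Tlr2 by 0.77. Of 17 genes of cell fusion and osteoclasts 12 rose and 3 fell (median change 1.20), and Cd47 and Trem2 were not called. Dcstamp and Ocstamp, which encode membrane proteins known from macrophage fusion, rose. Dcstamp went from 3.05, 3.51 and 3.47 to 7.42, 7.80 and 7.68 and Ocstamp from -1.87, -1.34 and -1.78 to 4.46, 5.14 and 4.79. The libraries of the groups did not overlap for either, and the adhesion gene Cdh1, which IL4 is known to induce before fusion, rose by 3.49.

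Sterol synthesis genes rose together. Of 25 tested genes of cholesterol biosynthesis 23 rose and 1 fell, with a median change of 0.79. Idi1, which makes an isoprene unit of the sterol chain, went from 4.30, 4.15 and 4.03 to 5.40, 5.37 and 5.43 (1.24 ± 0.06, adjusted p = 1.1e-09), without overlap. The lanosterol demethylase gene Cyp51 rose by 1.12 ± 0.07, the squalene synthase gene Fdft1 by 1.08 ± 0.08 and the squalene epoxidase gene Sqle by 0.94 ± 0.10. The member that fell was Lbr (by 0.30), which has a sterol reductase domain and also holds chromatin at the nuclear envelope. Of 15 genes of fatty acid synthesis and desaturation 11 rose and none fell (median change 0.33), led by the desaturases Scd1 (2.55 ± 0.13) and Scd2 (1.92). Of 18 cholesterol efflux genes and targets of the oxysterol receptor LXR, 9 were lower, 8 did not pass the test and 1 was higher (the oxysterol-making enzyme gene Ch25h, 0.87, below a filter at 4 CPM), with a median change of -0.15. Apoe, the lipid carrier, fell from 12.72, 12.79 and 12.80 to 11.13, 11.16 and 11.06 (-1.66 ± 0.07, adjusted p = 6.4e-10), and its cluster neighbour Apoc1 fell by 2.47 (SE 0.30). The LXR gene Nr1h3 fell by 0.71. Of 34 genes of lipid storage and fatty acid oxidation 17 rose and 6 fell (median change 0.11), among them Lpl, the lipoprotein lipase (1.87 ± 0.09), and Ppargc1b, a coactivator of mitochondrial genes (0.99).

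Genes of energy metabolism and translation were mostly higher, by small amounts. Nuclear-encoded respiratory chain subunits were higher in 64 of 70 cases and lower in none (median change 0.36; 58 higher under quantile normalization), with Cox8a (0.73) and Atp5b (0.67) at the upper end. Cytosolic ribosomal protein genes were higher in 71 of 77 cases and lower in none (median change 0.28), but under quantile normalization 33 rose, 2 fell and the median was 0.10. These genes have short transcripts, with a median longest transcript of 1094 bases for the ribosomal and 1003 for the respiratory list against 3403 over all tested genes, and of the 441 tested genes with transcripts under 1 kb 40.1% rose and 15.9% fell. The part of transcript length in these counts was not tested. Of 24 citric acid cycle genes 19 rose and 1 fell (Suclg2, -1.38; median change 0.23), and Acod1, which makes itaconate, rose by 1.48 ± 0.06. Glycolysis and hypoxia genes rose in 21 of 30 cases and fell in 4 (median change 0.42), with Pfkp at 1.92 ± 0.03, Ldha at 0.73 ± 0.06 and a fall of Vegfa by 0.89. Pentose phosphate and one-carbon genes rose in 13 of 18 cases and fell in 1 (median change 0.39). The fall was that of Shmt1 (-0.62, adjusted p = 0.0237), which was not called without IL4 RA library 3 (adjusted p = 0.0795) or naive RA library 3 (adjusted p = 0.0791).

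Genes of amino acid supply and redox defence were higher too. Of 22 ATF4 targets 16 rose and 3 fell (1 without IL4 RA library 4), with a median change of 0.58; the cystine carrier Slc7a11 rose by 2.10, and the serine synthesis gene Psat1, of the one-carbon list, by 2.19. Of 24 NRF2 antioxidant genes 18 rose and 2 fell (median change 0.40), with Nqo1, a quinone reductase, at 2.46 ± 0.08 and falls of Sod1 by 0.49 and Sod2 by 0.27. Heat shock and ER chaperone genes rose in 11 of 22 cases and fell in 2 (median change 0.19). That count of falls varied between 1 (without IL4 RA library 4 or naive RA library 3 or 4) and 4 (without naive RA library 2 or naive vehicle library 3), and was 7 under quantile normalization. Hspa1a rose by 2.72 ± 0.16, but it shares reads with its near-identical copy Hspa1b (2.50), and the split between them is uncertain. In iron handling 7 of 17 genes rose and 4 fell (median change 0.10): the transferrin receptor gene Tfrc rose by 1.39 ± 0.08, and the iron exporter gene Slc40a1 fell by 1.43 (SE 0.04). Cell cycle and replication genes rose in 18 of 36 cases and fell in 2 (5 without IL4 RA library 2), with a median change of 0.25; the cyclin genes Ccnd2 (1.75 ± 0.16) and Ccnd1 (1.24 ± 0.10) and the cycle inhibitor gene Cdkn1a (1.27 ± 0.12) rose.

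Other lists moved in both directions. Of 34 cathepsins, metalloproteases and inhibitors 14 rose and 8 fell, with a median change of 0.06 that became -0.10 under quantile normalization (9 higher, 15 lower). Mmp12, an elastase of macrophages, was at 8.04, 8.14 and 7.93 without IL4 and at 12.18, 12.60 and 12.41 with it, and Mmp9 (3.15), Mmp13 (2.99) and Mmp8 (2.48) rose. Mmp12 did not overlap between the groups. Lysosomal pump and hydrolase genes were even, 12 of 34 higher and 12 lower (median change -0.06; 20 lower under quantile normalization), although the proton pump subunit gene Atp6v0d2 rose by 1.83. Of 22 growth and angiogenic factor genes 10 rose and 9 fell (median change 0.01, and -0.02 with libraries centred or quantile normalized), with Hbegf at 3.32 and Csf1, the gene of M-CSF, at 2.19. In TGF-beta and BMP signalling 7 of 28 genes rose and 10 fell (median change -0.15). In the Notch pathway 5 of 17 rose and 6 fell (median change -0.04), with the ligand gene Jag2 at -2.27 ± 0.33. The counts of both lists were not far from the shares over all tested genes (29.0% higher and 26.7% lower). Of 16 purinergic genes 7 rose and 5 fell (median change 0.04, -0.02 under quantile normalization, and 3 falls with a filter at 4 CPM).

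The largest decreases with IL4 were led by Cd207, which encodes langerin, a lectin known from Langerhans cells (chr6:83671207-83677857, minus strand). It was at 3.87, 3.44 and 3.65 in the naive RA libraries and at -0.90, -0.80 and -1.03 in the IL4 RA libraries. The change was -4.56 ± 0.14 (adjusted p = 1.7e-11) with a wide gap between groups. Thbs1, the matrix protein thrombospondin 1, went from 8.36, 8.69 and 8.95 to 5.55, 4.68 and 4.81 (-3.65 ± 0.22, adjusted p = 1.1e-08). Hpgd, the enzyme that inactivates prostaglandins, went from 2.55, 3.01 and 2.82 to -1.14, -1.36 and -0.02 (-3.63 ± 0.33, adjusted p = 6.7e-07), with 1 IL4 RA library above the other 2 but none near the naive RA libraries. After Cxcr3 and Itga9 came the activating receptor gene Cd300e (-2.88), Gpr162 (-2.85), the dicarboxylate carrier gene Slc13a3 (-2.79), Igfbp4 (-2.78), the adrenoceptor gene Adra1a (-2.77), Ctla2b (-2.69), the complement regulator gene Cd55 (-2.66), Rhobtb1 (-2.54), Fgd2 (-2.54) and Rrad (-2.51). The largest increases not described so far were those of the TGF-beta-binding surface protein gene Lrrc32 (6.35 ± 0.23), the pattern recognition gene Ptx3 (5.47 ± 0.31) and the carbonic anhydrase gene Car2 (5.45 ± 0.24).

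In cells given vehicle in place of RA, IL4 changed largely the same genes, and 3693 genes were higher (30.5%) and 3592 lower (29.6%). Of the 6747 genes called after RA, 5921 were called in vehicle too, which is 87.8% of the RA calls and 81.3% of the vehicle calls, and 5913 of these moved the same way. Across the 12116 genes, which are not independent replicates, the effects correlated with Pearson's r = 0.961 and Spearman's rho = 0.922. For Retnla the effect was 10.94 after RA and 10.70 after vehicle (difference 0.24 ± 0.41, adjusted p = 0.918), for Arg1 8.33 and 8.51 (difference -0.18 ± 0.24, adjusted p = 0.885), and for Aldh1a2 8.24 and 8.23 (difference 0.01 ± 0.34, adjusted p = 0.995). The SE of these differences, with a median of 0.10 over all tested genes, limits what could be seen, and a difference that misses the threshold does not show equal effects. The interferon lists had lower medians after RA (0.59 against 0.95 for interferon-stimulated genes, and 0.85 against 1.62 for GTPases), and the difference passed the test for none of their members. Medians of other lists shifted both ways. That of CC chemokines was 1.57 after RA against 2.01 after vehicle, and that of dendritic cell markers 1.77 against 1.27. Cxcl9 rose by 2.34 after RA and 4.01 after vehicle (difference -1.68, adjusted p = 0.173).

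**Figure D4:**
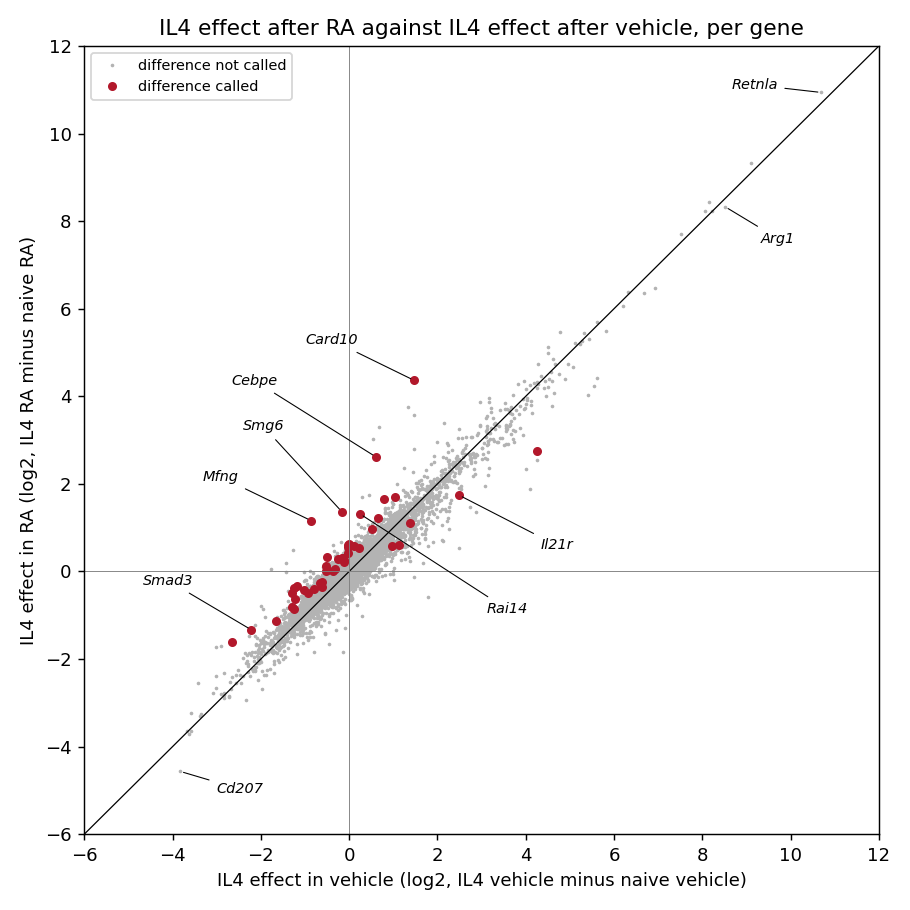
IL4 effect per gene after RA (y axis, log2) against the effect after vehicle (x axis, log2), with the 46 genes whose difference was called in red and the line of equal effects in black. Most genes lie close to the line, and most red points lie above it (41 above, 5 below).

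The difference itself, the IL4 effect after RA minus that after vehicle, was called for 46 genes: it was more positive after RA for 41 (0.338% of tested genes) and more negative for 5 (0.0413%), with a median size of 0.54. An unadjusted p under 0.05 was reached by 1006 genes, and without the intensity trend of the model 14 positive and 1 negative differences were called. Leaving out single libraries moved the counts to between 16 (without naive RA library 3) and 50 (without IL4 vehicle library 4) positive and between 1 and 17 (without IL4 vehicle library 4) negative differences. Of the 46 calls 31 were lost when some single library was left out, and 14 of the positive and 1 of the negative ones were kept in all 12 leave-outs. Of the genes called after RA or vehicle alone, 826 were called only after RA and 1364 only after vehicle, but the difference was called for 8 and 5 of these, so most such genes were not shown to respond differently. The call went opposite ways after RA and vehicle for 8 genes, among them Mfng, Sdc1 and Ceacam1.

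Mfng encodes manic fringe, a glycosyltransferase that modifies Notch receptors (chr15:78755882-78773516). After vehicle IL4 lowered it, from 2.69, 2.77 and 2.78 to 1.89, 1.84 and 1.92, and after RA it was higher with IL4, at 4.40, 4.58 and 4.27 against 3.18, 3.26 and 3.32. No group overlapped another, the effects were -0.86 and 1.16, and their difference was 2.03 ± 0.11 (adjusted p = 1.9e-06). Smg6, an endonuclease of nonsense-mediated decay (chr11:74925854-75164448, plus strand), was at 4.69, 4.54 and 4.67 in naive and 4.34, 4.52 and 4.54 in IL4 cells after vehicle, and at 4.71, 4.84 and 4.74 and 6.06, 6.26 and 6.06 after RA. The IL4 RA libraries stood clearly above the other 9, and the difference was 1.53 ± 0.10 (adjusted p = 5.8e-06). The end of Smg6 overlaps Hic1 on the other strand; whether counting used strand is not given in the sources used here, so reads of the overlap cannot be told apart. Hic1 rose with IL4 by 3.40 after RA and 2.14 after vehicle, a difference that did not pass the test (1.26, adjusted p = 0.139).

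Rai14, known as a gene that RA induces (chr15:10568971-10719267, minus strand), rose with IL4 by 0.25 after vehicle, from 4.42, 4.48 and 4.40 to 4.66, 4.71 and 4.67, and by 1.31 after RA, from 4.86, 4.96 and 4.76 to 6.20, 6.28 and 6.04. The difference was 1.06 ± 0.09 (adjusted p = 8.5e-05). Smad3, which carries TGF-beta signals, was lowered by IL4 in both settings, from 4.17, 4.00 and 4.15 to 1.75, 1.92 and 2.01 after vehicle and from 5.31, 5.33 and 5.30 to 4.13, 3.77 and 4.04 after RA. Its fall was smaller after RA (difference 0.88 ± 0.13, adjusted p = 0.0109). Ndst1, an enzyme that sulfates heparan chains, fell from 6.30, 6.12 and 6.19 to 4.86, 4.97 and 5.03 after vehicle and from 6.84, 6.88 and 6.82 to 6.46, 6.51 and 6.43 after RA (difference 0.87 ± 0.07, adjusted p = 8.6e-05). Sesn1, a stress-induced inhibitor of mTORC1, fell from 6.98, 6.81 and 6.98 to 5.57, 5.52 and 5.79 after vehicle and from 6.99, 6.90 and 6.78 to 6.42, 6.26 and 6.49 after RA (difference 0.80 ± 0.11, adjusted p = 0.00953, and 0.0608 without the intensity trend).

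Sdc1, the heparan sulfate proteoglycan syndecan 1, was lowered by 0.51 after vehicle, from 8.50, 8.75 and 8.57 to 8.06, 8.14 and 8.09, and raised by 0.33 after RA, from 8.56, 8.74 and 8.76 to 8.92, 9.15 and 8.97. The difference was 0.84 ± 0.10 (adjusted p = 0.00336), but the rise after RA was not called under quantile normalization (0.109, adjusted p = 0.196). Ceacam1, an adhesion receptor, went likewise from 3.93, 3.96 and 4.02 to 3.75, 3.77 and 3.62 after vehicle and from 4.12, 4.14 and 4.08 to 4.43, 4.40 and 4.38 after RA (difference 0.55 ± 0.08, adjusted p = 0.00953). Galnt6, which starts O-linked glycans, had no called IL4 effect after vehicle (-0.01) and rose by 0.63 after RA, a difference of 0.64 ± 0.09 (adjusted p = 0.0097, and 0.0608 without the intensity trend). Its IL4 RA libraries were at 6.81, 6.81 and 6.77 and the other 9 between 6.08 and 6.37. The fall of C5ar1 was smaller after RA as well (difference 0.53 ± 0.06, adjusted p = 0.00083).

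In the opposite direction, the IL21 receptor gene Il21r rose with IL4 by 2.49 after vehicle, from 5.16, 5.27 and 5.13 to 7.65, 7.78 and 7.61, and by 1.74 after RA, from 5.80, 6.04 and 5.88 to 7.67, 7.72 and 7.56. The IL4 RA and IL4 vehicle libraries overlapped, and the naive RA libraries lay above the naive vehicle libraries. The difference was -0.75 ± 0.09 (adjusted p = 0.00336), the only negative one kept in all 12 leave-outs.

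Other called differences were close to the threshold and were lost in some leave-outs. That of Siglece, an inhibitory sialic acid receptor (1.04 ± 0.16, adjusted p = 0.0182), was lost without IL4 vehicle library 3, naive RA library 3 or naive vehicle library 4 (adjusted p up to 0.0675). That of Cebpe (2.01 ± 0.36, adjusted p = 0.0325) was lost in 10 of the 12 leave-outs (up to 0.109) and kept without IL4 vehicle library 4 or naive vehicle library 2. Ltbp3, which stores TGF-beta in the matrix (0.66 ± 0.12, adjusted p = 0.0325), lost it in 9 (up to 0.0877) and kept it without IL4 RA library 4, IL4 vehicle library 3 or naive RA library 3. For Nrip1 (0.63 ± 0.11, adjusted p = 0.0289) it was lost in 8 (up to 0.084), all but IL4 RA libraries 2 and 4, IL4 vehicle library 4 and naive vehicle library 3. For Cd200r1 (-0.29 ± 0.05, adjusted p = 0.0251) it was lost in 8 (up to 0.084), all but IL4 RA, IL4 vehicle and naive RA library 4 and naive vehicle library 3.

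**Figure D5:**
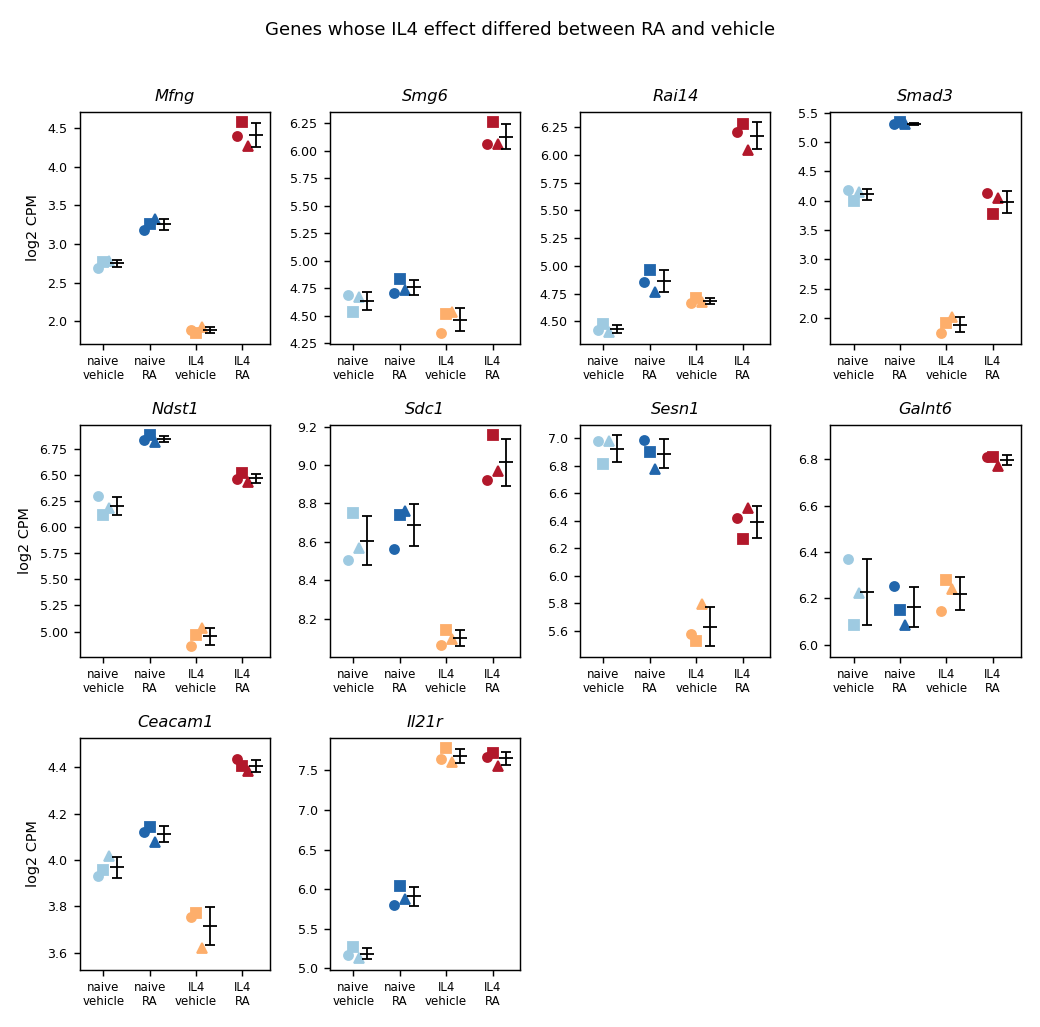
Deposited log2 CPM of 10 genes whose IL4 effect differed between RA and vehicle in the full fit and in each leave-out, in all 12 libraries by group (circle, square and triangle for libraries 2, 3 and 4; black bar, mean ± SD, n = 3; separate y axes). Mfng falls with IL4 after vehicle and is higher with IL4 after RA, and Smg6 stands at 6.06 to 6.26 in the IL4 RA libraries alone.

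Replicate libraries of the RA groups correlated at r = 0.993 to 0.996 and libraries of different RA groups at 0.943 to 0.951. Depth, estimated from the smallest steps between low values, was 36.2 to 38.1 M reads for naive RA and 30.8 to 32.3 M reads for IL4 RA libraries, and rests on 6 to 18 genes per library. Summed CPM of 7 macrophage markers was 34400 to 38700 in naive RA and 21500 to 23000 in IL4 RA libraries, so as a set they were expressed in every library. The sum does not give the level of each marker alone. Of markers of other cells, 4 of 11 for eosinophils, basophils and mast cells were in the table (Siglecf, Il5ra, Ccr3 and Gata2), summing to 10.1 to 11.8 against 89.3 to 108 CPM, 10 of 12 for stroma and endothelium (95.7 to 103 against 148 to 173, although of 8 tested Vwf alone was called higher, by 1.85, and 3 fell, Pecam1 with a change of -2.40 and Col3a1 of -1.31 among them), 4 of 11 for T and NK cells (17.2 to 19.5 against 5.33 to 6.69; of the 2 tested, Cd4 changed by -2.29 and Cd247 by 0.88), 3 of 10 for erythroid and megakaryocyte cells (45.5 to 64.3 against 41.8 to 58.2), and 2 of 9 for neutrophils (2.14 to 2.57 against 3.48 to 4.34). Of 7 markers of B and plasma cells 0 were in the table, so their levels were not analysed here. None of those in the table was at its lowest value in all 6 libraries, and the part of other cells in the changes was not tested. In bulk RNA, fewer cells of a type and less RNA per cell cannot be told apart.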

How the data were processed

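Bone marrow-derived macrophages in 4 groups of 3 libraries were profiled by RNA-seq. The submitters' processing notes name bcl2fastq 2.20, Salmon 0.13.1 and edgeR 3.32.1 with build GRCm38, in no stated order. The deposited values are log2 CPM that the authors scaled by TMM, a between-library normalization, as the deposited table is named; the prior count, gene filter and strand setting are not given in the sources used here. All libraries share 1 bottom value, -3.67 (0.0783 CPM), and back-transformed libraries sum to 950904 to 1056493 CPM. Read counts were not analysed here, so depth is an estimate.

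The deposited values were used unchanged. Genes with log2 CPM of at least 0 in at least 3 libraries were fitted in R 4.3.3 with limma 3.58.1, using a mean for each of the 4 groups, all 12 libraries and an intensity trend, and p-values were two-sided, Benjamini-Hochberg adjusted over all 12116 genes within each contrast and called under 0.05. Contrasts were IL4 against naive after RA, the same after vehicle, and their difference. Changes are log2 differences of means and understate those of genes near the bottom value. A gene low in either group can pass the filter through the group where it is high. Among the RA libraries, Aldh1a2, Ccl17, Ccl24, Ocstamp and Pdcd1lg2 reached log2 CPM of 0 only with IL4. Cd207, Cxcr3 and Hpgd reached it only without IL4. List counts that include such genes are partly set by the filter. Gene positions and promoters came from RefSeq (GRCm38.p6), in which 13404 of 13553 IDs were found.

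The text names the 15 largest increases and decreases among genes called in the full fit and in each leave-out with no overlap between groups and a mean of 4 CPM or more in the higher one. Up to 10 differences each way had to be called in the full fit and in each leave-out. They also needed a mean of 4 CPM or more in the highest of the 4 groups. Up to 4 members per direction of each of 54 gene lists had to be called in the full fit and in each leave-out. For list members no demand was made on level or overlap. A fixed set of IL4 and RA genes was named as well. Gbp9 and Shmt1 were added after their values were seen. Members, lists and rules were chosen with earlier results of these data known. Alternatives were other scalings and filters, no trend, robust moderation, the 6 RA libraries alone, a replicate block and leaving out each library. Cyp26a1 is not analysed here, and a few genes that these rules select are not reported here.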

Additional observations from a re-analysis of the deposited data

Results flagged for a closer look

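For the 10 genes given here the effect of IL4 after RA differed from that after vehicle by the test of the difference in limma, in the full fit and in each fit that left out 1 library. The differences, RA minus vehicle on the log2 scale with n = 3 per group, were 2.03 for Mfng, 1.53 for Smg6, 1.06 for Rai14, 0.88 for Smad3, 0.87 for Ndst1, 0.84 for Sdc1, 0.80 for Sesn1, 0.64 for Galnt6 and 0.55 for Ceacam1, all more positive after RA, and -0.75 for Il21r. The highest adjusted p over the leave-outs was 2.5e-05 for Mfng, 6.5e-05 for Smg6, 0.00055 for Rai14 and 0.00064 for Ndst1, and it came closest to the threshold for Smad3, at 0.0435. Without the intensity trend of the model Sesn1 and Galnt6 missed the threshold (adjusted p = 0.0608 each).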

How the results depend on the processing

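The counts of genes higher and lower after RA stayed within 1.5 times the reported ones under every alternative run: 2987 to 3735 were called higher and 2847 to 4089 lower. Higher genes made up 52.1% of calls, 46.7% with libraries centred on their medians and 42.2% under quantile normalization, which took the median of all genes from -0.004 to -0.06. The counts for the difference were less stable. Instead of 41 more positive and 5 more negative, 14 and 1 were called without the intensity trend, and with the replicate number as a block (replicate block) 67 and 11. Leaving out 1 library gave 16 to 50 and 1 to 17: 16 positive without naive RA library 3, 19 without IL4 vehicle library 3, naive RA library 4 or naive vehicle library 4, 20 without IL4 RA library 3, 21 without IL4 RA library 2, 23 (naive RA) and 24 (naive vehicle) without a library 2, 27 without IL4 RA library 4, and 50 without IL4 vehicle library 4. Negative differences numbered 17 without IL4 vehicle library 4, 1 without IL4 RA library 2 or 3, IL4 vehicle library 3 or naive RA library 3, 2 without naive vehicle library 2, and 3 without IL4 RA library 4, naive RA library 4 or naive vehicle library 4. The leave-out fits have fewer samples. Without the trend the differences of Sesn1 and Galnt6 missed the threshold (adjusted p = 0.0608 each); the cause was not tested.

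For the IL4 effect after RA, 7156 of 7169 results of 343 named genes under alternatives kept direction and call. The call was lost in 9 (Sdc1, Gbp9 and Shmt1) and gained in 3 (Stat6), and 1 turned its sign. That was Pparg, never called, which ranged over leave-outs from -0.012 without naive RA library 2 to 0.146 without IL4 RA library 2. Most named genes were chosen because they were called in each leave-out. Their agreement over those fits was therefore set in advance and is no measure of stability. The replicate numbers were not taken as pairs, since the deviations of same-numbered RA libraries correlated at 0.089, 0.186 and 0.126, the first under 0.1, although those of the vehicle libraries correlated at 0.14, 0.209 and 0.182; each of the 6 RA libraries did correlate best with its own number in the other group, a hint from the data and not from the design. With the block 3624 genes were higher and 3369 lower after RA, and 6 cell cycle genes were lower in place of 2. Depth limits low genes most, and no counts were used.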

Other observations

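Card10, a scaffold gene of NF-kB signalling that neighbours Mfng on chromosome 15 (chr15:78775123-78803072, minus strand), was listed at the bottom value of -3.67 in all 3 naive vehicle libraries, at -3.24, -3.25 and -2.67 in naive RA libraries, at -2.02, -2.27 and -2.31 in IL4 vehicle libraries and at 1.38, 1.43 and 1.12 in IL4 RA libraries. Its difference was called (adjusted p = 0.0212) but lost in 5 of 12 leave-outs (adjusted p up to 0.0877), those without IL4 RA library 2 or 3 or 4, IL4 vehicle library 3 or naive RA library 3, and no size is given because it rests on the bottom value. Card10 passed the filter only through the IL4 RA libraries, the group where it is high. Its call is therefore partly set by the filter and is given as a description.

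Across 11352 tested genes with a transcript length, IL4 effects and length correlated weakly over genes, which are not replicates (Spearman's rho -0.063 after RA and -0.124 after vehicle). Genes with transcripts under 1 kb rose in 40.1% and fell in 15.9% of cases, and those of 8 kb or more rose in 25.9% and fell in 27.4%.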
